A study of Bos taurus with 8 samples.

Results

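The nuclear genes for the mitochondrial respiratory chain and the ATP synthase were examined in granulocytes from the blood of cows. The members are all genes on the array whose symbol begins with NDUF, UQCR, COX4 to COX8 or ATP5, together with SDHA, SDHB, SDHC, SDHD and CYC1. This rule found 78 genes among the 5976 genes that could be named. They comprise 37 subunits of complex I, 1 assembly factor of complex I, 4 subunits of complex II, 7 of complex III, 14 of complex IV and 15 genes of complex V.

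The study took granulocytes from 4 cows at 2 times, with 1 single-colour array per sample. At the first sampling (n = 4) the cows were not pregnant, had not yet received an embryo and were on day 7 of their cycle. At the second (n = 4) they were on day 21 and pregnant from a transferred embryo. Since the source names tie each cow to an array of either time, the day, the transfer, the pregnancy and the date of sampling cannot be told apart. All 4 cows received an embryo and became pregnant, so these samples hold no cow followed over the same days without a transfer or without a pregnancy. Breed and age are not given in the sources used here.

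The respiratory chain passes electrons from NADH through complex I, and from succinate through complex II, to ubiquinone, then through complex III and cytochrome c to complex IV, which reduces oxygen. Complexes I, III and IV pump protons across the inner mitochondrial membrane, and complex V, the ATP synthase, lets them flow back and makes ATP. Mature neutrophils, the main granulocytes of blood, have few mitochondria and draw most of their ATP from glycolysis, while their mitochondria are known for roles in chemotaxis and apoptosis. Most subunits are encoded in the nucleus. A few are encoded in mitochondrial DNA, and no probe on this array was named for any of those.

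Each gene was read by 1 probe of 60 bases, and where a gene had more than 1 probe the brightest was used. The first 30 bases of the probes on which the results below turn are given in the order of the array files. NDUFAF5 is shown because it had the smallest p value of the 78 genes, NDUFA9, SDHC and ATP5F1E because their groups did not overlap, COX6B1, COX5B and COX7C because 1 array decided their values, and ATP5PB and NDUFAB1 because they had 2 probes each.
NDUFAF5: agcacttgaacaggacactgatgaaattca
NDUFA9: taccaaccaggccacctttggcggagaatc
SDHC: gaaaaaccaaacctcttactgtcatgtttt
ATP5F1E: tgagtacagcctgaatgctgcatgttcaag
COX6B1: agaaggcacgtttcctgggaagatctgaac
COX5B: gtcccacaccagctggcccactgagccact
COX7C: agacagataggaagaggagcatattaagag
ATP5PB, both probes: gagttgtcctgtgaccacttttaaataagc
NDUFAB1, probe used: agtgtctggcggtgagaacgcatttctgca
NDUFAB1, other probe: tatatgaataaaatatcagaccccttttcc
The probes of ATP5PB were identical over all 60 bases, so they measured the same target at 2 places on each array. The NDUFAB1 probes shared no run longer than 6 bases. Paralogous subunits had distinct probes, since the longest run shared by the probes of ATP5MC1, ATP5MC2 and ATP5MC3, of COX6A1 and COX6A2, of COX6B1 and COX6B2, of COX7A1 and COX7A2, or of NDUFA4 and NDUFA4L2 was 8 bases. The GC content of the 78 probes had a median of 44.2% and that of all tested genes 45.0%.

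A level is the log2 processed signal relative to its array's 75th percentile, and a change is day 21 minus day 7 on that scale. The arrays had a median processed signal of 49.1 to 186.9, and 56.8% to 74.9% of their probes were well above background. Neutrophil markers were present, as all 10 genes of that list were well above background on every array. The day 21 array of cow 2 stood apart over the 78 genes, with correlations of 0.66 to 0.81 with the other 7 arrays. The 4 arrays of cows 3 and 4 correlated at 0.96 to 0.98 with each other. Over all tested genes the day 21 array of cow 2 correlated at 0.86 to 0.94 with the others. The day 7 array of cow 1 did so at 0.86 to 0.95. For some of the changes below that rest largely on the day 21 array of cow 2 or on an array of cow 1, the value without it follows.

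All 78 genes passed the filter, which asked for 4 or more of the 8 arrays with the probe well above background and which 4395 of the 5976 named genes passed. Of the 78, 76 were well above background on all 8 arrays. The exceptions were COX6A2, known as the striated muscle form of its subunit, and NDUFA4L2, each well above background on 3 of 4 arrays at day 7 and on 4 of 4 at day 21. Transcripts for all 5 complexes, including the 4 subunits of complex II, were therefore measurable in these granulocyte samples at both times.

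No member passed the test. In limma's moderated test 0 of the 78 genes had an adjusted p under 0.05, against a background of 0% of all tested probes. At an unadjusted p under 0.05 there was 1 member, NDUFAF5, or 1.28% of the 78, against 8.51% of all tested genes. By sign, 55 members were higher at day 21 and 23 were lower, so 70.5% were higher against 56.4% of all tested genes. The median change of the 78 was 0.23 and that of all tested genes was 0.09. The median size of a member's change was 0.34, below the median SD within a group of 0.57 at day 7 and 0.45 at day 21 (n = 4 each). That SD holds the differences between cows, although the same cows were sampled at either time. With cow as a block the median standard error of the members was 0.28, against 0.40 without it. Only 4 members had a change larger than 1, against 542 of the 4395 tested genes (12.3%). In 24 members all 4 cows were higher at day 21 (background 16.5%), and in 4 all were lower (background 12.6%). The groups did not overlap in 3 members, all higher at day 21 (background 3.5% higher and 2% lower). When cow was a block, 5 of the 78 had an unadjusted p under 0.05, which is 6.41% against a background of 17.5%, and the adjusted count stayed at 0.

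**Figure D1:**
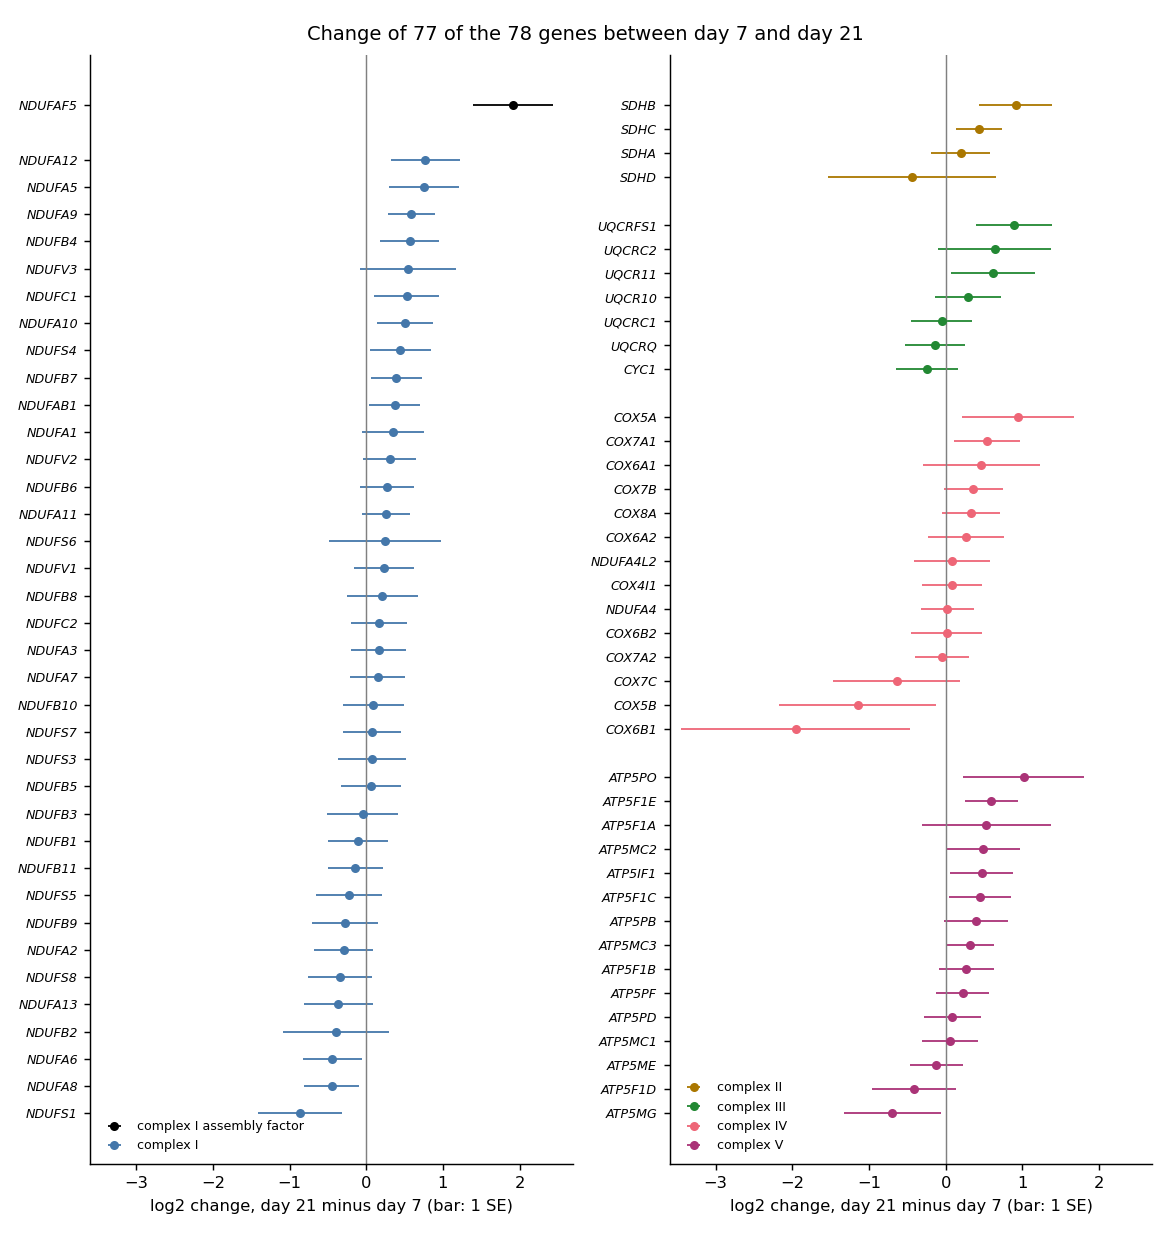
Log2 change from day 7 to day 21 for 77 of the 78 genes, by complex, with a bar of 1 standard error on each side (n = 4 arrays per group, 3 at day 21 for NDUFS3). Most points lie just right of 0, NDUFAF5 lies farthest right at 1.91 and COX6B1 farthest left at -1.96, with a wide bar.

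Complex I carries electrons from NADH to ubiquinone, and its assembly needs proteins that are not part of the finished complex. One of these, NDUFAF5, hydroxylates an arginine of the core subunit NDUFS7 and was the member with the lowest p. Its level was -4.96, -4.50, -3.47 and -3.43 in cows 1 to 4 at day 7 and -3.44, -1.59, -1.80 and -1.86 at day 21. All 4 cows were higher at day 21, by 1.52, 2.90, 1.66 and 1.56, yet the groups touched, because cow 1 at day 21 lay at the level of cows 3 and 4 at day 7. The change was 1.91 ± 0.52 (SE), a fold of 3.76, with adjusted p = 0.386 in limma. The unadjusted p was 0.00424. With cow as a block the error was 0.32 and the adjusted p 0.123. It stayed at an unadjusted p under 0.05 under every alternative tried, with changes of 1.16 to 2.33, and its adjusted p was lowest, at 0.00624, with array quality weights, a fit that called 15.5% of all tested genes. NDUFS7 itself, the substrate, differed by 0.07 ± 0.38.

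The 5 assembly factors of complex I that carry other names, a list from general knowledge, were mostly on the other side of 0. Of the 5, 1 was higher and 4 were lower, with a median of -0.16, and 0 had an unadjusted p under 0.05. TMEM186 had the smallest p among the lower ones, at -0.90 ± 0.52, while TIMMDC1 was at 0.07 ± 0.41.

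Of the 37 subunits of complex I, 25 were higher and 12 lower, with a median of 0.17. None reached an unadjusted p under 0.05 in limma. The core subunits and their closest partners, the NDUFS and NDUFV genes, had a median of 0.23 (8 higher and 3 lower of 11), the NDUFA genes 0.26 (9 and 4 of 13), the NDUFB genes 0.06 (6 and 5 of 11), and both NDUFC genes were higher.

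NDUFA9, which stabilises the joint between the membrane arm and the matrix arm, had the smallest p of the subunits. Its level was 2.20, 1.96, 2.00 and 1.68 at day 7 and 2.56, 2.66, 2.62 and 2.35 at day 21. Every day 21 array was above every day 7 array, and the change was 0.36 to 0.70 in the 4 cows. The difference was 0.59 ± 0.31 (adjusted p = 0.597), a fold of 1.50, and with cow as a block the unadjusted p was 0.0436. NDUFA12, an accessory subunit, was at 0.77 ± 0.45, but cows 1 and 2 gave 0.99 and 1.75 while cows 3 and 4 gave 0.16 and 0.17, and without cow 2 it was at 0.44. NDUFA10 was at 0.50 ± 0.36 and higher in 4 of 4 cows, and NDUFA5 at 0.75 ± 0.46 and higher in 3 of 4.

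The largest change in the other direction within complex I was that of NDUFS1, the core subunit that holds several iron-sulphur clusters. Its level was 1.80, 1.61, 0.65 and 1.13 at day 7 and 1.94, 0.59, -0.50 and -0.27 at day 21. Cows 2, 3 and 4 were lower by 1.02, 1.16 and 1.40, while cow 1 was 0.13 higher, so that the groups overlapped. The change was -0.86 ± 0.55 (adjusted p = 0.648). Leaving out cow 1 at day 21 gave -1.36 with adjusted p = 0.164. Array quality weights, lowest for the cow 1 arrays and highest for the cow 4 arrays, gave -1.30 with adjusted p = 0.0224. NDUFA8, NDUFA6, NDUFA13 and NDUFB2, all accessory subunits, were the 4 members lower in every cow. Their changes were -0.45 ± 0.36, -0.44 ± 0.38, -0.36 ± 0.45 and -0.40 ± 0.69, in that order. NDUFA13 was at -0.11 without the day 7 array of cow 1 and at -0.37 without cow 1 altogether. NDUFB2 was at 0.22 without the day 21 array of cow 2 and at -0.17 without cow 2 altogether.

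**Figure D2:**
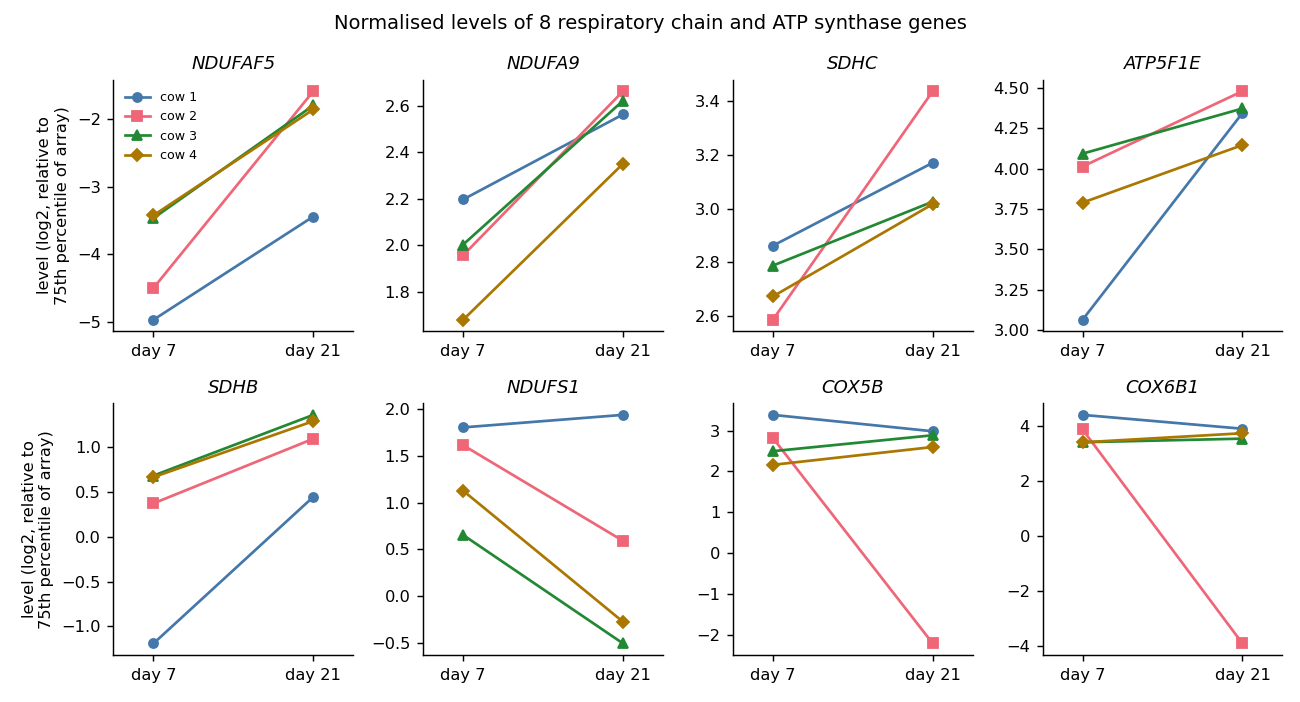
Normalised level (log2, relative to the 75th percentile of the array) of 8 genes at day 7 and day 21, with 1 line per cow. NDUFAF5, NDUFA9, SDHC, ATP5F1E and SDHB slope up in all 4 cows, NDUFS1 slopes down in 3, and COX5B and COX6B1 are nearly flat except for cow 2, whose day 21 points lie at -2.20 and -3.91.

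Complex II, succinate dehydrogenase, links the citric acid cycle to the chain. Of its 4 subunits 3 were higher and 1 lower, with a median of 0.32. SDHB, the iron-sulphur subunit, was -1.19, 0.37, 0.68 and 0.66 at day 7 and 0.44, 1.09, 1.36 and 1.29 at day 21. It was higher in 4 of 4 cows, by 1.63, 0.72, 0.68 and 0.62, but the low day 7 value of cow 1 widened the spread and the groups overlapped. The change was 0.91 ± 0.47 (adjusted p = 0.595), and with cow as a block the unadjusted p was 0.0163. Leaving out the low array gave 0.47, and leaving out cow 1 altogether gave 0.67. SDHC, a membrane anchor, was 2.86, 2.58, 2.79 and 2.67 at day 7 and 3.17, 3.44, 3.03 and 3.02 at day 21. Its groups did not overlap although the difference was small, at 0.44 ± 0.31 (adjusted p = 0.676). SDHA, the flavoprotein, was at 0.20 ± 0.38. SDHD, the other anchor, was at -0.44 ± 1.10, where cow 1 gave -2.89 and cow 4 gave 0.99. Its sign was the opposite without cow 1, at 0.37.

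Complex III passes electrons from ubiquinol to cytochrome c. Of its 7 genes 4 were higher and 3 lower, with a median of 0.30. UQCRFS1, the Rieske iron-sulphur protein, was -1.18, -0.29, 0.76 and 0.66 at day 7 and 0.12, 1.36, 1.05 and 0.98 at day 21. It was higher in 4 of 4 cows, by more in cows 1 and 2 (1.30 and 1.65) than in cows 3 and 4 (0.29 and 0.32). The change was 0.89 ± 0.50 (adjusted p = 0.616), with an unadjusted p of 0.0338 when cow was a block. It was 0.50 if the day 7 array of cow 1 was left out and 0.75 if cow 1 was left out altogether. CYC1, which carries the haem of cytochrome c1, was at -0.25 ± 0.40. It was at 0.016 without the day 7 array of cow 1 and at -0.17 without cow 1 altogether. The core proteins UQCRC1 and UQCRC2 were at -0.05 ± 0.40 and 0.64 ± 0.74. UQCRC2 was at 0.15 without the day 7 array of cow 1 and at 0.55 without cow 1 altogether. The small subunit UQCRQ was at -0.14 ± 0.39. UQCR11 and UQCR10, also small subunits, were at 0.62 ± 0.55 and 0.30 ± 0.43, and both were higher in cow 1 (2.01 and 1.73) but lower in cows 3 and 4 by between 0.11 and 0.29. Without the day 7 array of cow 1 they were at 0.05 and -0.088. Only 2 of the 7 genes were higher in cow 3.

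Complex IV, cytochrome c oxidase, reduces oxygen to water. Its 14 nuclear genes, counting NDUFA4 and NDUFA4L2 here, gave 10 higher and 4 lower, and a median of 0.08. The cows differed in this complex: cows 1 and 2 had median changes of -0.45 and -0.17, cows 3 and 4 had 0.28 and 0.38. In cows 3 and 4, 14 and 13 of the 14 genes were higher, against 5 and 6 in cows 1 and 2. Whether the cows differ could not be tested, as each has 1 array per time.

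COX6B1, a subunit on the intermembrane side, had the widest spread of all members. It was 4.42, 3.88, 3.42 and 3.41 at day 7 and 3.91, -3.91, 3.55 and 3.75 at day 21. The single low value belongs to cow 2, where the processed signal was 34.4 against 11108 to 20481 on the other 7 arrays. The change was -1.96 ± 1.49 (adjusted p = 0.709), and without that array it was -0.05. COX5B, another nuclear subunit, showed the same pattern, with a level of -2.20 in cow 2 at day 21 and 2.16 to 3.38 elsewhere. Its change of -1.15 ± 1.02 was 0.11 without that array. COX7C was also lowest there, at -1.47 against 0.85 to 2.88 on the other arrays. Its change of -0.64 ± 0.83 became 0.28 without that array and -0.08 without cow 2 altogether.

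COX5A, which has no such low spot, was -0.82, 0.73, 2.14 and 2.20 at day 7 and 0.53, 2.86, 2.25 and 2.39 at day 21. It was higher in 4 of 4 cows, by 1.35 and 2.14 in cows 1 and 2 but by 0.11 and 0.18 in cows 3 and 4. The change was 0.95 ± 0.73 (adjusted p = 0.713). It was 0.32 without the day 7 array of cow 1 and 0.81 without cow 1 altogether.

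Several subunits of complexes IV and V come in alternative forms, some of them known from heart and skeletal muscle or from cells at low oxygen. COX7A1, the muscle form, was 0.60, 0.72, -0.01 and -0.64 at day 7 and 0.82, -0.10, 1.27 and 0.83 at day 21. It was higher in 3 of 4 cows and lower in cow 2, with a change of 0.54 ± 0.44 (adjusted p = 0.729). Its widely expressed partner COX7A2 was at -0.05 ± 0.35. COX6A1 and COX6A2 were at 0.47 ± 0.76 and 0.27 ± 0.50. Without the day 7 array of cow 1 COX6A1 was at -0.085, and without cow 1 altogether at 0.24. NDUFA4 and NDUFA4L2, the latter known from the response to low oxygen, were at 0.02 ± 0.35 and 0.08 ± 0.50. COX4I1 was at 0.08 ± 0.39. The genes for the same ring subunit of the ATP synthase, ATP5MC1, ATP5MC2 and ATP5MC3, were at 0.05 ± 0.37, 0.49 ± 0.48 and 0.32 ± 0.31. ATP5MC3 was higher in 4 of 4 cows. None of these forms had an adjusted p under 0.05 in limma without array weights, and with array quality weights COX7A1 was at 1.08 with adjusted p = 0.0399.

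Complex V consists of a catalytic F1 part and a membrane part with the proton channel. Of its 15 genes 12 were higher and 3 lower, with a median of 0.32. The number higher was 9, 10, 14 and 15 of 15 in cows 1 to 4. ATP5F1E, the epsilon subunit of F1, was 3.06, 4.01, 4.09 and 3.79 at day 7 and 4.35, 4.48, 4.37 and 4.15 at day 21. All day 21 arrays were above all day 7 arrays, but cow 1 gave 1.28 and the other cows 0.28 to 0.47. The change was 0.60 ± 0.35 (adjusted p = 0.634), and 0.37 without the day 7 array of cow 1.

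The other F1 subunits were split. ATP5F1A and ATP5F1B, the alpha and beta subunits, were higher in 4 of 4 cows at 0.53 ± 0.84 and 0.27 ± 0.36. Without the day 7 array of cow 1 ATP5F1A was at -0.16 and ATP5F1B at 0.05. Without cow 1 altogether they were at 0.36 and 0.15. ATP5F1C, the gamma subunit, was at 0.45 ± 0.41 and higher in 3 of 4 cows, and ATP5F1D, the delta subunit, was at -0.42 ± 0.55, where cow 2 gave -1.70, and at 0.041 without the day 21 array of cow 2. ATP5PO, which joins F1 to the stator, had the largest change of the complex at 1.02 ± 0.79, where cow 2 gave 3.19 and the others 0.21 to 0.36. It was at 0.30 without cow 2, at 0.47 without the day 7 array of cow 2 and at 0.85 without its day 21 array. ATP5IF1, the inhibitor of ATP hydrolysis, was at 0.47 ± 0.41 and higher in 4 of 4 cows. ATP5MG, a subunit of the membrane part, was at -0.69 ± 0.64, where cows 1 and 2 gave -1.30 and -1.58 and the others at most 0.10. It was at -0.15 without the day 21 array of cow 2 and at -0.40 without cow 2 altogether.

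The change of single genes was far more uniform in 2 of the cows. Over the 78 genes the within-cow change had an SD of 0.84 and 1.44 for cows 1 and 2, but of 0.36 and 0.42 for cows 3 and 4. Members with a change of more than 1 in either direction numbered 14, 19, 3 and 4 in cows 1 to 4. All tested genes showed the same order, with SDs of 1.00, 1.37, 0.71 and 0.82. In cows 3 and 4, 62 and 64 of the 78 genes were higher at day 21 (79.5% and 82.1%), against 57.6% and 56.3% of all tested genes. In cows 1 and 2, 40 of 78 and 46 of 77 were higher (51.3% and 59.7%), against 46.3% and 54.7%. The median change was 0.08, 0.31, 0.16 and 0.27 in cows 1 to 4.

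**Figure D3:**
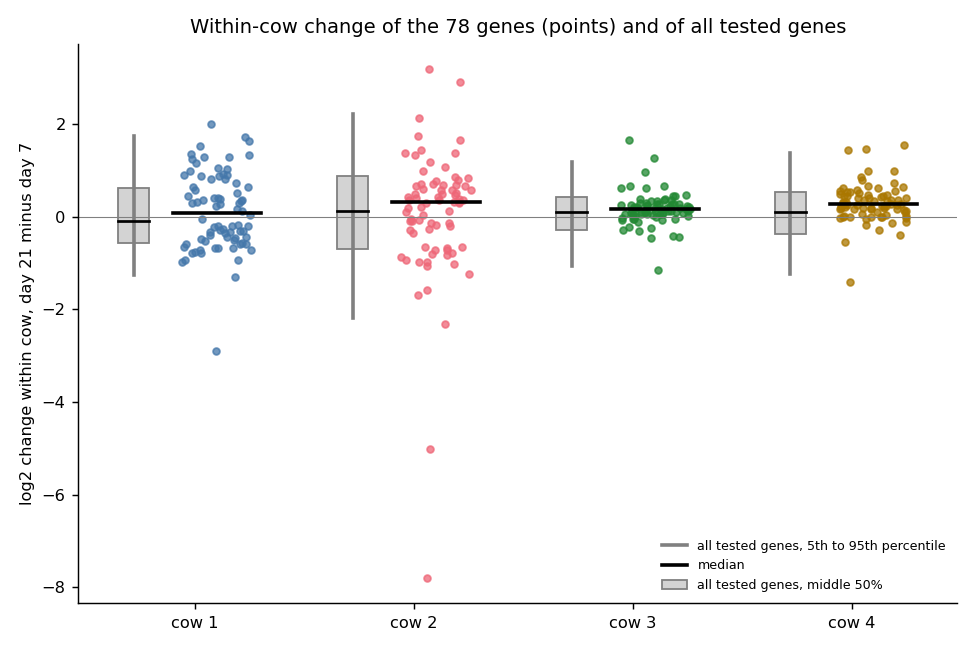
Log2 change within each cow for the 78 genes (coloured points, black line at the median), beside the middle 50% (grey box) and the 5th to 95th percentile (grey line) of all tested genes. The points of cows 3 and 4 lie close together just above 0, while those of cows 1 and 2 spread widely, down to -7.79 for COX6B1 in cow 2.

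Across the 78 genes the changes of cows 3 and 4 correlated at r = 0.85, while the other 5 pairs of cows gave r between -0.03 and 0.29. Without NDUFAF5 and NDUFS1, the ends of the scatter, cows 3 and 4 gave r = 0.78 over 76 genes. Genes are not independent replicates, and over all tested genes cows 3 and 4 correlated at 0.81. Cow 2 correlated with cows 3 and 4 at 0.43 and 0.42 over all tested genes, and at 0.14 with either over the members. The value over the members includes the low spots of COX6B1 and COX5B in cow 2 (changes of -7.79 and -5.02) and was not recomputed without them. Both arrays of cow 3 shared 1 slide and both arrays of cow 4 another. Cow 1 shared a slide with the day 7 array of cow 2, and the day 21 array of cow 2 was alone on its slide. Each slide had 1 scan date, so slide and scan cannot be told apart. With slide as a fixed block, 63 of the 78 were higher with a median of 0.19, a fit to which the day 21 array of cow 2 contributes nothing. In cows 3 and 4 only, an alternative chosen after seeing the data, 66 were higher and the median was 0.20. In that fit 5 of the 78 had an unadjusted p under 0.05 (background 17.6%), of which NDUFAF5, SDHB, COX7A1 and NDUFA10 were higher and NDUFS1 was lower.

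**Figure D4:**
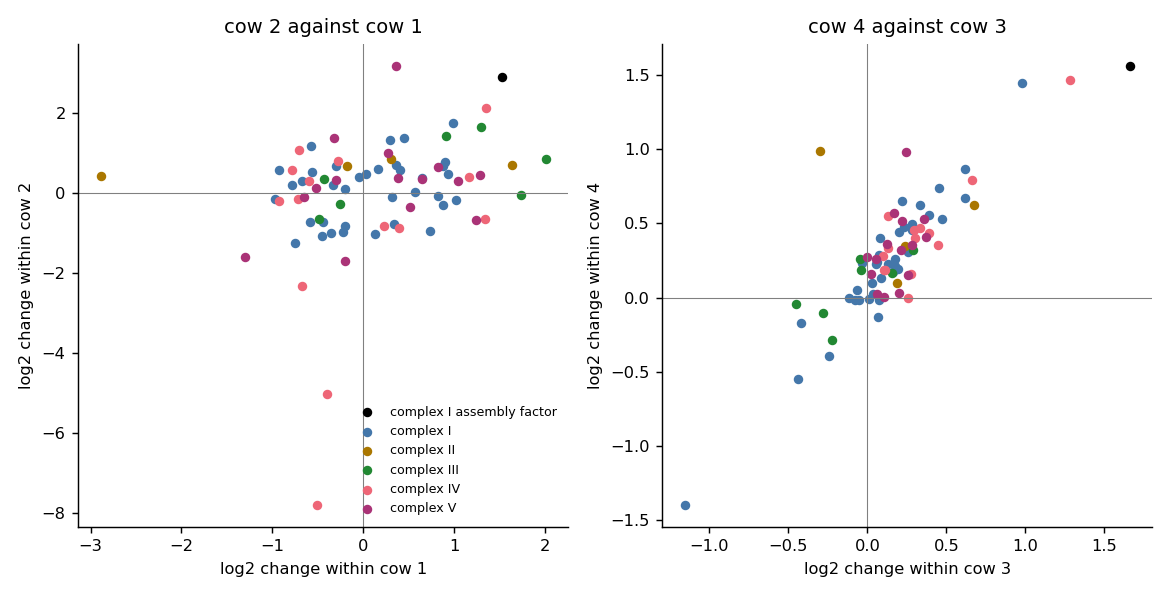
Log2 change of each gene within cow 2 against cow 1 (left) and within cow 4 against cow 3 (right), coloured by complex. The right panel falls along a line (r = 0.85 over 78 genes), while the left panel is scattered (r = 0.29 over 77 genes) with COX6B1 and COX5B at the bottom.

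In cows 1 and 2 the values varied with the position of the spot on the array. In cow 1 the change of the 78 genes correlated at r = 0.73 with the median change of the other tested probes within 4 rows and columns on the array, and in cow 2 at r = 0.43, against 0.11 and 0.14 in cows 3 and 4. For all tested genes these values were 0.57, 0.33, 0.02 and 0.08. The neighbours of COX7C had a median change of -2.09 in cow 2, where COX7C itself had -2.32. Those of COX5B had -1.13 against -5.02 for the gene, and those of COX6B1 -0.16 against -7.79. The identical probes of ATP5PB differed by 1.18 on the day 7 array of cow 1 and by at most 0.24 on the other 7 arrays. The ATP5PB change was 0.39 ± 0.41 by the probe used and 0.59 ± 0.52 by the other. The NDUFAB1 probes gave 0.37 ± 0.34 and 0.11 ± 0.34. After the local deviation of the neighbours was subtracted on each array, an alternative chosen after seeing the data, 50 of 78 members were higher with a median of 0.14, while all tested genes had 51.7% higher and a median of 0.03. NDUFAF5 was then at 1.68 ± 0.51 (adjusted p = 0.309) and remained the 1 member at an unadjusted p under 0.05, against 10.1% of all tested genes. The SD of the 78 changes in cow 1 was 0.58 with this correction and 0.84 without it, and in cow 2 it was 1.31 with it and 1.44 without. The identical ATP5PB probes still differed by 0.94 on the day 7 array of cow 1 after the correction, and by at most 0.34 on the other 7 arrays.

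Other mitochondrial gene lists, taken from general knowledge, were counted in the same fit, in which 5.16% of all tested genes were higher and 3.34% lower at an unadjusted p under 0.05. The exchange of ATP, ADP and phosphate had the highest median, 0.56, with 7 of 8 tested genes higher and 1 higher at an unadjusted p under 0.05. That gene was SLC25A5, a carrier that trades matrix ATP for cytosolic ADP. It was at 1.12 ± 0.43 (adjusted p = 0.497), higher in 4 of 4 cows with no overlap of the groups, and at 0.71 without the day 7 array of cow 1. The uncoupling protein UCP2 was at -0.19 ± 0.45. Of the electron carriers and entry enzymes 4 of 8 were higher, with a median of 0.27. Among them ETFB, a subunit of the electron transfer flavoprotein, was at 0.63 ± 0.37. DHODH, which feeds electrons from pyrimidine synthesis to ubiquinone, was at -0.99 ± 0.44 and was the 1 gene of its list at an unadjusted p under 0.05. The citric acid cycle and pyruvate dehydrogenase list had 11 of 15 higher and a median of 0.21. Its 1 gene at an unadjusted p under 0.05 was PDHA1 at 1.08 ± 0.48, well above background on only 1 array at day 7 and 3 at day 21. PDHX, of the same enzyme complex, was at -0.91 ± 0.59.

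Assembly factors of complexes II to V were evenly divided, with 5 of 10 higher and a median of 0.03. BCS1L, which inserts the Rieske protein into complex III, was the 1 gene of this list at an unadjusted p under 0.05, at -0.94 ± 0.42, while UQCRFS1, which encodes the protein it inserts, was at 0.89 ± 0.50. SCO1, which delivers copper to complex IV, was at 0.38 ± 0.36. The biogenesis list had 5 of 7 higher and a median of 0.34. TFAM, which packages mitochondrial DNA, was at 0.72 ± 0.42. TFB1M, which methylates mitochondrial ribosomal RNA, was the 1 gene at an unadjusted p under 0.05, at -2.84 ± 1.21, lower in 4 of 4 cows and by 6.96 in cow 1. Leaving out cow 1 at day 21 gave -1.38. The mitochondrial antioxidant list had 4 of 8 higher (median 0.10), the mitochondrial ribosome 25 of 44 (median 0.08, with 1 gene higher and 1 lower at an unadjusted p under 0.05) and protein import 5 of 11 (median -0.12). None of the genes of these lists had an adjusted p under 0.05 in this fit. With array quality weights, which called 15.5% of all tested genes, BCS1L, DHODH, PDHX and TMEM186 were lower and TFAM higher with adjusted p of 0.00735 to 0.0363. That fit also called COQ3 of the electron carrier list and VDAC2 and VDAC3 of the exchange list higher. It called PRDX3, SOD2 and TIMM22 lower. Of the 44 mitochondrial ribosome genes it called 6 higher and 4 lower.

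Abundant gene groups outside mitochondria were counted beside these. Glycolysis had 9 of 16 higher and a median of 0.15, the proteasome 21 of 31 and 0.15, and the cytosolic ribosomal proteins 41 of 64 and 0.16. In cows 3 and 4, 63 and 59 of the 64 ribosomal protein genes were higher, 14 and 13 of the 16 glycolysis genes, and 21 and 23 of the 31 proteasome genes. In cows 1 and 2 the numbers higher were 17 and 37 for the ribosomal proteins, 7 and 7 for glycolysis, and 19 and 17 for the proteasome. The difference between these lists and the respiratory chain was not tested.

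**Figure D5:**
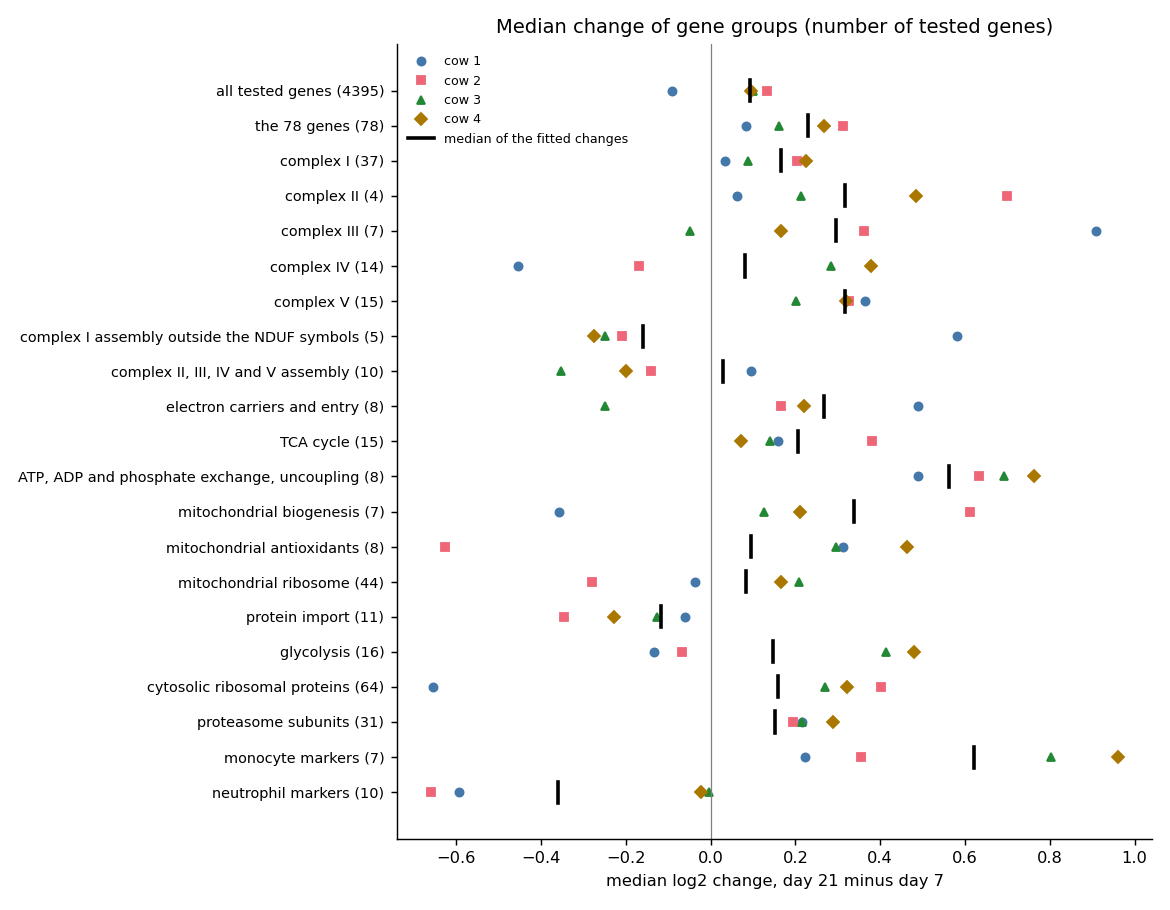
Median log2 change of the complexes, of other mitochondrial and cytosolic gene groups and of 2 marker lists, with the number of tested genes in parentheses. Black bars give the median of the fitted changes and symbols the median within each cow. The bar of the 78 genes lies at 0.23 and that of all tested genes at 0.09.

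The mean level of most monocyte markers was above, and that of the neutrophil markers below, that at day 7. Of the 7 monocyte markers 6 were higher at day 21 (median 0.62), and their summed level relative to the 75th percentile was 6.50 to 9.56 at day 7 and 10.3 to 17.7 at day 21, without overlap. Each of the 7 was well above background on some array, and 6 on all 8. The 10 neutrophil markers all had a mean change below 0 (median -0.36), and the sum of the 9 measured on every array was 118 to 148 at day 7 and 67.7 to 139 at day 21. Single arrays decided part of this, as 3 of the 10 (CXCR1, MMP9 and FCGR3A) were higher in 3 of 4 cows. Without the day 21 array of cow 1, 3 of the 10 were above 0, among them CXCR1 at 1.56 and MMP9 at 0.65. In cows 3 and 4, 5 of the 10 were higher in each. By cow the monocyte median was 0.22, 0.35, 0.80 and 0.96 and the neutrophil median -0.59, -0.66, -0.0041 and -0.021. T cell markers had a median of -0.46 (3 of 9 higher), NK cell markers 0.29 (6 of 7), B and plasma cell markers 0.36 (3 of 4), erythroid markers 0.22 (2 of 3), the 2 platelet markers 0.40 and the 2 eosinophil and basophil markers 0.21. In bulk samples a change in the share of a cell type cannot be told apart from a change in RNA per cell. The part of cell type shares in the counts above was not tested.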

How the data were processed

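Per the labels' protocols, granulocyte RNA was taken up in TRIzol, and linear amplification gave Cy3-labelled cRNA for 1 Agilent array per sample. The authors deposited the intensity of every spot, as Agilent Feature Extraction 9.5 wrote it (submitters' processing notes). The processed signal is, per the file headers, background-subtracted and spatially detrended, with a surrogate for signals at background. The deposited series table holds log2 values, which differ from the log2 processed signal by 1 constant in each array, to within 0.00485. This table was a second source for the fit without a block only. Its constants lay within 0.007 to 0.016 of the 75th percentile scaling used here, so that fit could hardly differ.

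For the analysis, each log2 processed signal was set relative to its array's 75th percentile. Spots marked as outliers by the scanner software were left out (0 to 12 per array, 129 on the day 21 array of cow 2). This removed NDUFS3 on that array, so its fit has 3 arrays at day 21. No spot was saturated. The number of arrays limits the precision. Probes well above background on at least 4 of 8 arrays were tested (10459 of 15208). Genes were named by accession, gene identifier, gene name or description through RefSeq names of ARS-UCD2.0, and 9000 probes stayed unnamed. Naming differences can change which probes count as members. Coordinates are left out because no source used here names the build behind the array.

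The times were compared with limma 3.58.1 in R 4.3.3 (lmFit and eBayes, no block), with Benjamini-Hochberg adjustment over all tested probes. Errors are standard errors unless SD is written. P values within the text come from this fit unless another fit is named with them. Simulated data had 4 against 4 arrays and 10307 probes, each with the mean and spread of a real probe. There the fit recovered 53 of 100 probes with a log2 change of 2 and 91 of 100 with a change of 4, with 6 false calls. The simulated noise was independent between probes and arrays, without the pairing of cows or the effects of spot position seen here. These counts may therefore not hold for the real arrays. The pairing comes from the source names. Deviations from the group means correlated at 0.17 to 0.75 between the samples of a cow. The lowest value, 0.17, was that of cow 2, the only cow with its arrays on different slides. Samples of cows 1 and 2 that shared a slide correlated at 0.30 across the times. These correlations therefore cannot tell cow from slide. Between cows the deviations correlated at -0.47 to 0.30 across the times and at -0.71 to 0.34 within a time.

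Named genes were, for each complex, the smallest p in each direction, the 6 smallest p of all members, SDHA to SDHD and CYC1, the paired forms, and the smallest p in each direction of each pathway list. Genes beyond these were added after their values were seen: the other subunits of complexes III and V given with values, NDUFA5, NDUFA10, NDUFS7, COX5B, COX7C, the genes lower in every cow, and those with 2 probes. The values of 1 member are not reported here, and the counts include it. Members and lists were chosen with earlier results of these data known. Alternatives were median scaling, normexp with either scaling, the series table, other filters, cow, slide and array weights in the model, and leaving out arrays or cows. Using cows 3 and 4 only and the local spot correction were added after seeing the data.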

Additional observations from a re-analysis of the deposited data

Results flagged for a closer look

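In 16 of 155 groups of 4 arrays (10.3%), 1 array lay apart from the other 3 by Dixon's criterion, against 6.16% of such groups over all tested genes. Chance gives about 1 in 20. Of the 16, 5 were on the day 7 array of cow 1 and 5 on the day 21 array of cow 1.

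On the day 7 array of cow 1, NDUFA10 was at 1.14 (others 0.05 to 0.15) and NDUFV1 at 3.68 (2.50 to 2.66), both high. NDUFV3 at 0.41 (2.56 to 2.81) and SDHB at -1.19 (0.37 to 0.68) were low there. On the day 21 array of the same cow, CYC1 at 4.45 (3.68 to 3.78) and NDUFA6 at 2.78 (1.79 to 1.91) were high, while ATP5PB at 1.96 (2.95 to 3.11), NDUFB4 at 1.04 (1.74 to 1.81) and NDUFAF5 at -3.44 (-1.86 to -1.59) were low.

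The day 21 array of cow 2 was low for COX6B1 at -3.91 (3.55 to 3.91), COX5B at -2.20 (2.60 to 2.98) and NDUFB9 at 1.74 (2.85 to 2.98). NDUFV2 was at 2.64 in cow 3 at day 21 (3.12 to 3.20) and NDUFA3 at 0.35 in cow 4 (0.98 to 1.11). NDUFA5 was at -0.80 in cow 4 at day 7 (0.58 to 0.60).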

How the results depend on the processing

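The number of members higher stayed between 45 and 66 of 78 and their median change between 0.14 and 0.26 under every alternative run, the leave-one-out fits giving 45 to 61 and 0.15 to 0.26. The share of genes higher over the array also moved, from 46.1% without the filter on dim probes to 58.5% with normexp and the 75th percentile. The count of 45 came without the day 7 array of cow 4, where 53.9% of all tested genes were higher. The count at an unadjusted p under 0.05, 1 in the fit without a block, was 2 with normexp and quantile scaling, 5 with cow as a replicate block, 3 with slide as a fixed or a random block, 8 with array quality weights, 5 in cows 3 and 4 only and 1 to 3 in leave-one-out fits. The share of all tested genes at that p was 8.51% without a block and 9.99% with normexp and quantile scaling. It was 17.5% with the cow block, and 10.3% and 13.4% with slide as a fixed and a random block. With array quality weights it was 32.1%, against 10.3% of the members. It was 17.6% in cows 3 and 4 only and 3.00% to 17.1% in leave-one-out fits. Probes called over the array, 0 without a block, were 12 with slide as a random block, 1691 with array quality weights and 0 to 48 in leave-one-out fits, where 48 came without the day 21 array of cow 1 and 38 without cow 1. With the weights, which ranged from 0.29 to 6.92, 4 members were called, namely NDUFAF5, COX7A1 and NDUFA10 higher and NDUFS1 lower, or 5.13% of 78 against 15.5% of tested genes. The arrays of cow 4 had the highest weights, 6.92 at day 21 and 3.25 at day 7. The arrays of the other cows had 0.29 to 1.28, so the calls of that fit rest largely on cow 4. The cow block called no member, as in the fit without it. Without the filter on dim probes the median change of all probes was -0.12 against 0.07.

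Of the 78 members, 37 kept their sign in every setting. Among genes given with values in the text, signs turned for NDUFA4 with median scaling (-0.0037), for ATP5MC1 (-0.015), COX4I1 (-0.022), NDUFA4 (-0.055) and NDUFA4L2 (-0.058) with normexp and quantile scaling, and for UQCRC1 with slide as a random block (0.058). With slide as a fixed block they turned for ATP5F1D (0.19), COX5B (0.20), COX6B1 (0.043), COX7A2 (0.049), COX7C (0.16), NDUFB2 (0.055) and UQCRC1 (0.11). Array quality weights turned COX7A2 (0.35), COX7C (0.0081), SDHD (0.57), TIMMDC1 (-0.23), UQCR10 (-0.21) and UQCRC1 (0.053). In cows 3 and 4 only the turned values were ATP5F1D 0.12, ATP5MG 0.053, COX5B 0.41, COX6B1 0.23, COX7A2 0.34, COX7C 0.22, CYC1 0.071, SDHD 0.35, TIMMDC1 -0.18, UQCR10 -0.25, UQCR11 -0.19 and UQCRC1 0.16. The local spot correction turned COX4I1 (-0.17), COX7A2 (0.15), COX7C (0.14), NDUFA4 (-0.021), NDUFB2 (0.20), NDUFS7 (-0.11), TIMMDC1 (-0.30) and UQCR10 (-0.19).

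Leave-one-out fits turned the sign of 34 of the 78 members. Of the 19 whose change the text gives, and of TIMMDC1 and UCP2, the ranges were ATP5F1A (-0.16 to 1.09), ATP5F1D (-0.79 to 0.041), ATP5MC1 (-0.087 to 0.29), COX4I1 (-0.16 to 0.40), COX5B (-1.68 to 0.14), COX6A1 (-0.085 to 1.07), COX6A2 (-0.052 to 0.62), COX7A2 (-0.24 to 0.18), COX7C (-1.17 to 0.28), CYC1 (-0.47 to 0.016), NDUFA4 (-0.075 to 0.26), NDUFA4L2 (-0.24 to 0.54), NDUFB2 (-0.86 to 0.22), NDUFS3 (-0.13 to 0.38), NDUFS7 (-0.082 to 0.31), SDHD (-1.10 to 0.72), TIMMDC1 (-0.22 to 0.25), UCP2 (-0.48 to 0.031), UQCR10 (-0.18 to 0.52), UQCRC1 (-0.24 to 0.20) and UQCRQ (-0.34 to 0.083). The cause was not tested for any of these. NDUFAF5, NDUFA9, SDHB, SDHC, ATP5F1E, UQCRFS1 and NDUFS1 kept their direction throughout.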

Other observations

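On the array, 6 further probes carry no symbol but are described in words as subunits of the chain or the ATP synthase, and 5 of them passed the filter. Their changes were all above 0 and none passed the test. The probe similar to the binding protein of complex III was at 0.83 ± 0.45 (adjusted p = 0.603 in limma) and higher in 4 of 4 cows. A probe similar to the 11 kDa protein of complex III was at 0.51 ± 0.35, one similar to a subunit VIc of complex IV at 0.27 ± 0.31, one similar to subunit VIIa of complex IV at 0.18 ± 0.41, and one similar to an F1 subunit of the ATP synthase at 0.41 ± 0.34, with changes of 0.36 to 0.46 in the 4 cows.

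The array describes 4 probes as clones of mitochondrial RNA, of which 3 passed the filter. The probe that did not pass is described as similar to 18S rRNA. Probes similar to the D-loop were at 0.28 ± 0.45 and 0.41 ± 0.45, higher in cows 2, 3 and 4 and lower in cow 1. The probe similar to 16S ribosomal RNA was at -0.45 ± 0.98, where cow 2 gave -2.43 and the others 0.03 to 0.33. In each of these 3 probes the change was smaller than the SD within either group.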
